A study of Homo sapiens with 9 samples.

Results

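CLU, the gene of clusterin, was followed window by window in an eCLIP experiment on the mitochondrial enzyme malate dehydrogenase 2 (MDH2). Its members were all windows that the count table lists under the Ensembl identifier ENSG00000120885, which GENCODE v44 names CLU. These were 740 of 15767969 windows and 1 of 35309 identifiers, with 282 windows in 11 exon segments and 458 windows in 10 introns. The gene lies on the minus strand of chromosome 8 (GRCh38, chr8:27596917-27614700). The study itself singled out CLU from these libraries, so the tests given here are not independent evidence of its enrichment.

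Clusterin is a secreted glycoprotein, also called apolipoprotein J, that binds unfolded proteins outside cells, circulates on lipoprotein particles and inhibits the terminal complement pathway. Its precursor enters the endoplasmic reticulum by a signal peptide encoded at the start of the reading frame and is cleaved into an alpha and a beta chain before secretion. Hepatocytes express the mRNA strongly.

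The 9 libraries came from Huh7, a human hepatoma line, grown without a genetic change or an added treatment. RNA was cross-linked to protein by UV light and fragmented with RNase I, and MDH2 was immunopurified with an antibody in 3 replicates (MDH2 IP). The 3 size-matched input libraries (SMI) came from lysate set aside before the IP, and the 3 IgG IP libraries from a control purification with isotype-matched IgG. Amplification took 14 PCR cycles for the IP libraries and 9 for SMI, so that the number of cycles and the IP cannot be told apart in comparisons with SMI. Each sequenced fragment gives 1 cross-link site, and the sites were counted in 50-nt windows that start every 20 nt, so that a site enters up to 3 windows. All 10 hepatocyte marker genes examined passed the count filter, with mean SMI levels between 45.1 CPM for SERPINA1 and 3442 CPM for APOB (CPM, window counts relative to the TMM-scaled library total).

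All window counts together ranged from 5899998 to 9482501 per library in MDH2 IP. The range was 8311118 to 9788565 in SMI but 1631267 to 2942816 in IgG IP, so counts of single windows are least precise in IgG IP. The share of all window counts that fell in exons differed between the groups: MDH2 IP libraries had 53.6% to 59.9%, SMI libraries 43.9% to 49.8% and IgG IP libraries 31.1% to 38.6%. For the gene, windows and segments of CLU, fits restricted to exons are therefore given beside those over exons and introns. Nothing in the labels says that the replicates came from separate cultures, so the p-values measure the spread between these libraries. The groups are purifications and input from the same cell line, not different cell populations. A CLU level in such a bulk library does not separate the number of cells expressing CLU from the CLU RNA per cell. Every level is relative to the other RNA of its library.

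The windows of the table carry numbers but no coordinates. They were placed on the genome by laying 50-nt windows over the flattened CLU exons of GENCODE v44, whereas the authors used GENCODE v23. The first and last listed windows then matched for 19 of 21 exon segments and introns. Segment 1 did not match: only window 889 was predicted, but windows up to 893 are listed. Positions past window 889 are therefore extrapolated. Exon segments are the stretches that the table numbers as exons 1 to 11 from the 5′ end of the gene. The canonical transcript, CLU-201, has 9 exons and 2749 nt, with its start codon at nt 76 in exon 2 and the end of its stop codon at nt 1425 in exon 9. Segment 1 covers exon 1, segment 5 holds exon 2, segments 6 to 9 hold exons 3 to 6, segment 10 holds exons 7 and 8 with the intron between them, and segment 11 is exon 9. Segments 2, 3 and 4 belong to other transcripts. Of the 740 windows, 115 lie at least by 25 nt in an exon of CLU-201.

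After scaling for depth, CLU was 2.04-fold higher in MDH2 IP than in SMI and 2.4-fold higher than in IgG IP. The summed window counts were 6067, 5748 and 3293 in MDH2 IP replicates 1, 2 and 3. They were 2446, 3776 and 2439 in SMI, and 988, 508 and 232 in IgG IP. After scaling, the CLU level was 596, 796 and 534 CPM in MDH2 IP, 289, 399 and 246 CPM in SMI, and 357, 311 and 159 CPM in IgG IP. All MDH2 IP libraries lay above all control libraries, whereas SMI and IgG IP overlapped.

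The means were 642 ± 137 CPM in MDH2 IP, 312 ± 78.8 CPM in SMI and 276 ± 104 CPM in IgG IP (SD, n = 3 each). In edgeR's quasi-likelihood test, the log2 fold change of MDH2 IP over SMI was 1.03 (SE 0.22, adjusted p = 0.00744), a 2.04-fold difference. Of the 17057 genes tested in this comparison, 16.4% were higher and 17.9% lower in MDH2 IP, and CLU stood at percentile 90.1 of all log2 fold changes. Libraries with the same number gave CPM ratios of 2.06, 1.99 and 2.17, closer to each other than the levels were. The main fit did not use these numbers, and with the number as a block the SE was 0.064. Counted over exon windows alone, the log2 fold change was 0.76 (adjusted p = 0.0253 in edgeR).

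Over IgG IP, the log2 fold change of CLU was 1.26 (SE 0.29, adjusted p = 0.0218 in edgeR), where 4.64% of 15492 genes were higher, 7.77% were lower and CLU stood at percentile 97.1. The ratios between libraries of the same number were 1.67, 2.56 and 3.36, a wider spread than over SMI. This call did not hold in every fit: the log2 fold change was 0.77 over exon windows alone (adjusted p = 0.177 in edgeR), 1.35 without MDH2 IP replicate 1 (adjusted p = 0.0649) and 1.11 without MDH2 IP replicate 2 (adjusted p = 0.0613). Between IgG IP and SMI, the CLU level did not differ beyond the replicate spread, with a log2 fold change of -0.15 (95% interval -0.71 to 0.41, adjusted p = 0.73 in edgeR). In that comparison 16.4% of 15709 genes were higher and 11.4% lower in IgG IP. The exact permutation test over 3 against 3 libraries, which cannot give a p below 0.1, gave p = 0.1 for the CPM of MDH2 IP against SMI and against IgG IP, and p = 0.7 for IgG IP against SMI.

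**Figure D1:**
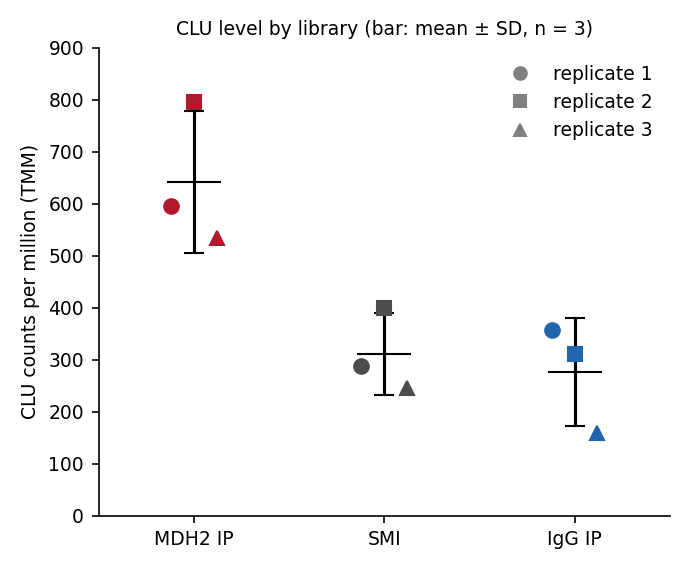
CLU level in each library, in TMM-scaled CPM (vertical axis), by group, with the mean and SD of 3 libraries as bars and the replicate number as the shape of the point. The MDH2 IP libraries lie between 534 and 796 CPM, above all SMI libraries (246 to 399 CPM) and all IgG IP libraries (159 to 357 CPM).

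Along the mRNA, the highest level lay around the start codon in every group, and the same window was the highest in all 9 libraries. This was window 681 of segment 5, in exon 2 at chr8:27610515-27610564, which covers coding bases 8 to 57, where the signal peptide is encoded. It held 355, 300 and 178 counts in MDH2 IP, 73, 123 and 76 in SMI, and 50, 18 and 14 in IgG IP. Its mean level was 35.1 ± 6.34 CPM in MDH2 IP, 9.77 ± 2.84 CPM in SMI and 12.9 ± 4.54 CPM in IgG IP (SD, n = 3). As a share of the CLU counts of a library, this window took 5.22% to 5.85% in MDH2 IP and 2.98% to 3.26% in SMI, with 3.54% to 6.03% in IgG IP. The share in IgG IP thus spanned that in MDH2 IP.

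Averaged over the listed windows of an exon of CLU-201, which leaves out windows without any count, the MDH2 IP level was highest in exon 2. It had 18.8 ± 3.8 CPM per window, followed by exon 1 with 12.7 ± 3.84 CPM. Exons 3 to 8 had mean levels between 4.17 and 8.39 CPM per window, and the MDH2 IP libraries of exon 2 (14.99 to 22.6 CPM) lay above those of exon 3 (6.9 to 9.87 CPM). Ranked by level, neighbouring exons overlapped in range, except that exon 9 lay below all others. In SMI, exon 2 was also the highest, with 5.58 CPM per window, but exon 1 with 2.81 CPM was below exon 3 with 4.14 CPM. In IgG IP, exons 2 and 1 were the highest, with 6.63 and 4.63 CPM. In MDH2 IP, exon 9 had 2.11 ± 0.466 CPM per listed window, with nearly all of its counts at its 5′ end. Only 47 of its 66 predicted windows are listed, so its mean over all windows would be lower. The 11 listed windows from chr8:27598017 to the exon's 5′ end held 750, 837 and 609 MDH2 IP counts, and the 36 listed windows farther 3′ held 29, 31 and 17. In SMI the split was 387, 547 and 420 against 16, 12 and 18 counts, and in IgG IP 147, 58 and 55 against 8, 5 and 3. Tested windows thus ended at nt 1649 of the annotated 2749 nt in MDH2 IP and SMI.

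Sites outside the exons of CLU-201 were few in every group. Windows of exon segments with fewer than 25 nt in those exons numbered 167. They held 243, 215 and 167 counts in MDH2 IP, 159, 173 and 158 in SMI, and 68, 36 and 12 in IgG IP. These counts include windows at exon edges and window 891 of segment 1, so not all of them lie away from the exons. The 458 intron windows held 387, 238 and 163 counts in MDH2 IP, 263, 397 and 225 in SMI, and 85, 65 and 28 in IgG IP. None of the 82 CLU windows with at least 50 counts had the same 9 counts as a window of another identifier. An overlapping gene with other exon borders could share sites without equal counts, so this does not show that no sites were shared.

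**Figure D2:**
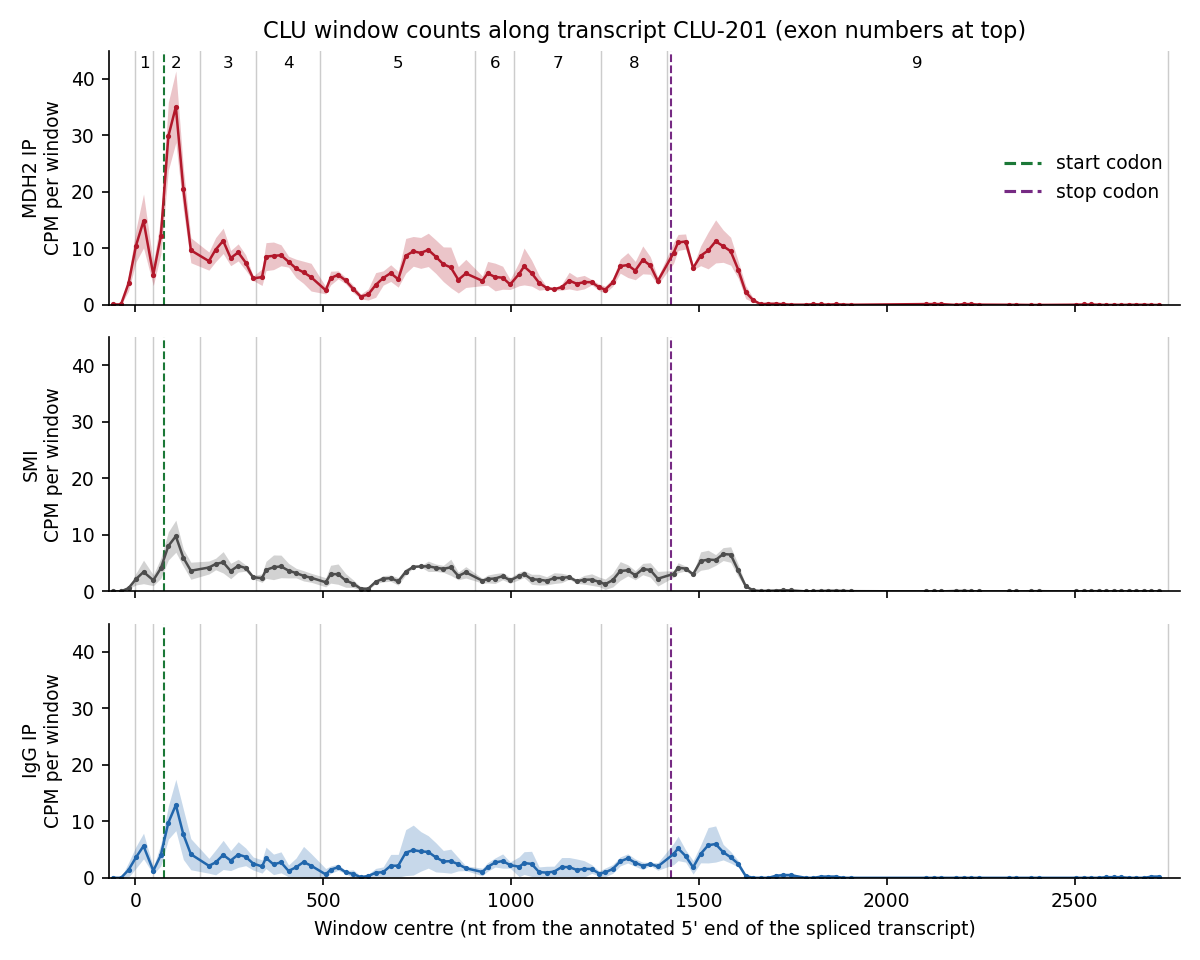
Mean CPM per window (lines with points) and SD over 3 libraries (shading) in MDH2 IP, SMI and IgG IP against the window centre in nt from the annotated 5′ end of spliced CLU-201, with exon borders as grey lines and the start and stop codons as dashed lines. All groups peak in exon 2 just after the start codon, at 35.1 CPM in MDH2 IP, 9.77 CPM in SMI and 12.9 CPM in IgG IP, and fall to near 0 in the 3′ part of exon 9.

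Window by window, MDH2 IP was enriched over SMI at the 5′ end, around the start codon and around the stop codon of CLU. Of 81 CLU windows that reached 10 counts in 3 or more libraries, all in exons, 9 were enriched, which required a log2 fold change of 1 or more and an adjusted p no higher than 0.05. Across all genes, 4.04% of 51108 windows passed, and among exon windows 3.19% of 46792 did. The median log2 fold change of the CLU windows was 0.60, against 0.05 over all tested windows, and 80 of 81 were above 0. Overlapping windows share sites, so these are not 81 separate measurements. The lowest was window 149 in exon 7, at -0.16.

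The enriched windows formed 3 regions. The first, with windows 889, 890 and 891 of segment 1, covers exon 1, which is part of the 5′ UTR. Its coordinates, chr8:27614655-27614744, are extrapolated past window 889 and reach beyond the transcript start of GENCODE v44. Window 889 held 141, 145 and 66 counts in MDH2 IP, 22, 55 and 19 in SMI, and 22, 9 and 5 in IgG IP, with a log2 fold change over SMI of 1.69 (SE 0.33, adjusted p = 0.00377 in edgeR). Window 890 held 104, 98 and 48 counts in MDH2 IP, 14, 32 and 15 in SMI, and 16, 5 and 3 in IgG IP, with a log2 fold change of 1.84 (SE 0.32, adjusted p = 0.00111 in edgeR). Every MDH2 IP count of these windows was above every SMI count, although in replicates 2 and 3 the SMI library was the deeper one. Window 891 had the largest log2 fold change of the gene, 2.31 (SE 0.42, adjusted p = 0.00167 in edgeR). Its counts were small, with 44, 35 and 14 in MDH2 IP, 4, 7 and 5 in SMI, and 8, 1 and 1 in IgG IP. Only the MDH2 IP libraries reached 10 counts, so window 891 entered the test through the group where it is high. It was not enriched when MDH2 IP replicate 1, 2 or 3 was left out, because it then failed the count filter. Its place, mostly upstream of the GENCODE v44 start, is extrapolated and does not show binding outside the annotation that the authors used.

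The second region, chr8:27610495-27610604, spans the start codon in exon 2 with windows 680, 681, 682 and 683 of segment 5. Window 681, described above as the highest of the gene, had a log2 fold change over SMI of 1.42 (SE 0.24, adjusted p = 0.00143 in edgeR). Window 682, which contains the start codon, held 298, 261 and 149 counts in MDH2 IP, 59, 103 and 62 in SMI, and 36, 12 and 13 in IgG IP, with a log2 fold change of 1.47 (SE 0.25, adjusted p = 0.00139). The MDH2 IP counts of both windows were well above those of SMI in every library. The outer windows 680 and 683 had log2 fold changes of 1.36 and 1.16 (adjusted p = 0.00272 and 0.0462 in edgeR), and the lowest MDH2 IP count of window 683 (54) was below its highest SMI count (58). Without SMI replicate 1, window 680 and window 889 were no longer enriched, and window 683 was not enriched in 8 of 16 alternative fits.

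The third region, chr8:27598177-27598250, holds the last coding bases, the stop codon and the first bases of the 3′ UTR, with windows 64 and 66 of segment 11. Window 64 held 101, 91 and 69 counts in MDH2 IP, 36, 41 and 35 in SMI, and 11, 8 and 4 in IgG IP, with a log2 fold change over SMI of 1.04 (SE 0.26, adjusted p = 0.0363 in edgeR). Window 66 held 74, 79 and 58 counts in MDH2 IP, 26, 35 and 25 in SMI, and 14, 9 and 3 in IgG IP, with a log2 fold change of 1.13 (SE 0.28, adjusted p = 0.0255). Window 65 between them, named after its values were seen, had 0.97 (adjusted p = 0.056). The counts of windows 64 and 66 did not overlap between MDH2 IP and SMI, but both calls were held in only 1 of the 6 fits that left out a library, the one without MDH2 IP replicate 3. Windows 681, 682 and 890 were enriched in all 16 alternative fits, with log2 fold changes of at least 1.23.

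The highest windows of the other segments were not enriched. Over SMI, they had log2 fold changes of 0.72 in segment 6, 0.57 in segment 7, 0.70 in segment 8, 0.95 in segment 9, 0.60 in segment 10 and 0.57 in segment 11. The number of enriched windows was 5 when either MDH2 IP replicate 1 or 2 was left out, 6 when SMI replicate 3 was and 4 when SMI replicate 1 was, and 8 in a fit of exon windows alone.

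No CLU window was enriched over IgG IP. Of 78 windows tested, 0 passed in edgeR and 0 with DESeq2, where 0.148% of all 30427 windows tested and 0.0751% of exon windows passed in edgeR. An unadjusted one-sided p under 0.05 was found in 31. Overlapping windows share sites, and the share of all windows with such a p is not given, so this count is no measure of enrichment. Most of the tested windows had fewer than 10 counts in IgG IP replicate 3 and entered the test through their MDH2 IP counts. Such a filter favours log2 fold changes above 0. With this limit and that of shared sites, the log2 fold changes were above 0 in 77 of 78 windows, with a median of 0.64 against 0.16 over all tested windows. They were 0.80 (SE 0.30) in window 681, 0.73 (SE 0.37) in window 889 and 0.90 (SE 0.40) in window 64, with adjusted p-values between 0.896 and 1 in edgeR. The IgG IP counts were 50 or less in each of these windows.

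The IgG IP itself was higher than SMI in some of the windows where MDH2 IP was enriched, without passing the test. Of 70 windows tested, 0 were enriched in IgG IP over SMI in edgeR and 0 with DESeq2, against 6.14% of all 26669 windows tested and 5.06% of exon windows. An unadjusted one-sided p under 0.05 was found in 10, a count with the same limits. The log2 fold change of IgG IP over SMI was 1.23 (SE 0.41, adjusted p = 0.0583 in edgeR) in window 889 and 0.90 (SE 0.31, adjusted p = 0.154) in window 681. With the replicate number as a block, window 889 passed (log2 fold change 1.28, adjusted p = 0.0384 in edgeR). The pairing that this block assumes is uncertain, because IgG IP replicate 1 did not correlate best with SMI replicate 1. The comparisons over SMI share the SMI libraries, and those with IgG IP share its libraries, so their values are given side by side and not as separate support.

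**Figure D3:**
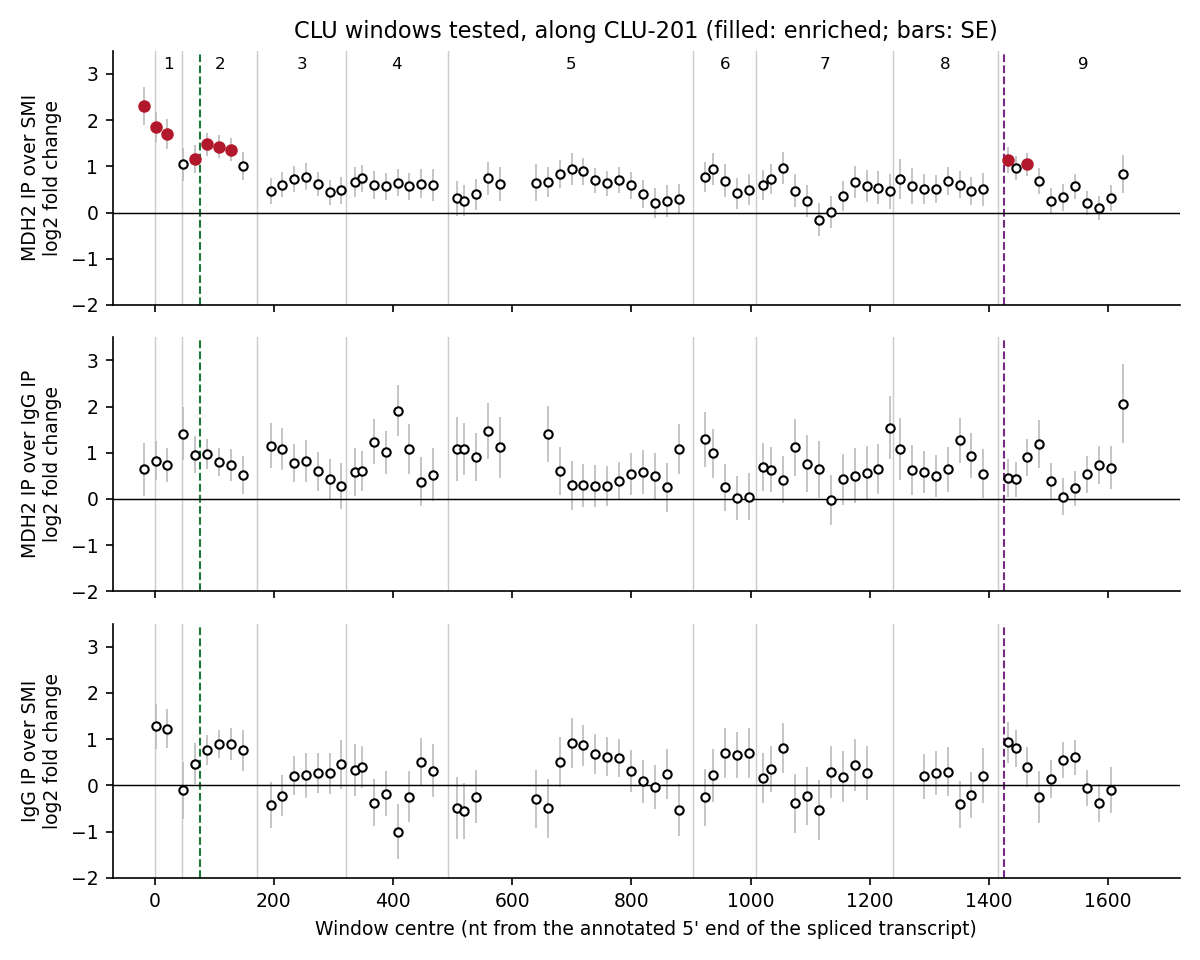
Log2 fold change of each tested CLU window (points, with SE as bars) for MDH2 IP over SMI, MDH2 IP over IgG IP and IgG IP over SMI against the window centre in nt from the annotated 5′ end of spliced CLU-201. Filled points are the 9 windows enriched over SMI, at the 5′ end, around the start codon (green dashed line) and at the stop codon (violet dashed line), and 0 windows are filled in the other comparisons.

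Summed over exon segments and introns, all segments that hold exons of CLU-201 were higher in MDH2 IP than in SMI. Segment 2, also tested, and the introns were not. Of 15 exon segments and introns tested, 8 were higher and 0 lower, and the 8 were segments 1 and 5 to 11, which hold the exons of CLU-201. Across all genes, 9.2% of 122977 exon segments and introns were higher and 11.9% lower, with 13.6% of 58684 exon segments higher and 20.1% of 64293 introns lower. Segment 1 had the largest log2 fold change, 2.14 (SE 0.34, adjusted p = 0.000743 in edgeR), on 291, 278 and 130 counts in MDH2 IP against 40, 94 and 39 in SMI. Segment 5 followed with 1.58 (SE 0.23, adjusted p = 0.000473 in edgeR), on 1189, 1023 and 597 counts in MDH2 IP against 273, 464 and 292 in SMI. In both segments the counts of the groups did not overlap.

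The remaining coding segments and the segment of the 3′ UTR lay close together. The log2 fold changes of segments 6 to 11 were between 0.80 and 0.98, beside a median of 0.47 over all exon segments of the table. In a fit of exon segments alone, where scaling rests on exons, 2 CLU segments were higher over SMI: segment 1 at 1.72 (adjusted p = 0.00212 in edgeR) and segment 5 at 1.16 (adjusted p = 0.00259), while segments 6 to 11 had values between 0.37 and 0.54. The share of all exon segments that were higher in that fit is not given. The number called was also lower without MDH2 IP replicate 2 (4), SMI replicate 1 (2, again segments 1 and 5) or SMI replicate 3 (4), and in a fit of all 9 libraries (5).

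Segment 2, an alternative exon, did not pass. It held 31, 39 and 33 counts in MDH2 IP, 40, 40 and 50 in SMI, and 12, 6 and 0 in IgG IP, with a log2 fold change over SMI of -0.13 (adjusted p = 0.817 in edgeR). The 6 introns tested had log2 fold changes between -0.58 in intron 9 and 1.03 in intron 1, with adjusted p-values of at least 0.207. Intron 9, the longest, held 89, 64 and 24 counts in MDH2 IP against 74, 143 and 64 in SMI. Intron 6 held 48, 35 and 31 against 41, 61 and 71 counts. The groups overlapped in both introns. Segments 3 and 4 and introns 3, 4, 8 and 10 had too few counts for the test.

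Over IgG IP, 7 of 15 were higher (segments 1, 5 to 8, 10 and 11) and 0 lower, where 4.33% of 85040 exon segments and introns were higher and 5.35% lower, and 7.95% of 42945 exon segments were higher. Segment 9 had a log2 fold change of 1.08 (adjusted p = 0.056 in edgeR). The log2 fold changes of the 8 segments that hold exons of CLU-201 lay between 1.08 and 1.64, beside a median of 0.85 over all exon segments. Segments 1 and 5 at 1.49 and 1.45 did not stand above segment 7 at 1.64 (SE 0.44). In the fit of exon segments alone, 0 CLU segments passed, with log2 fold changes of 0.88 in segment 1 and 0.84 in segment 5. The share over all exon segments is not given for that fit. Without MDH2 IP replicate 1 or replicate 2, 4 passed. Between IgG IP and SMI, 0 of 14 passed in edgeR and 0 with DESeq2, and 0 had an unadjusted p under 0.05, where 8.31% of 91628 were higher and 5.41% lower in IgG IP.

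**Figure D4:**
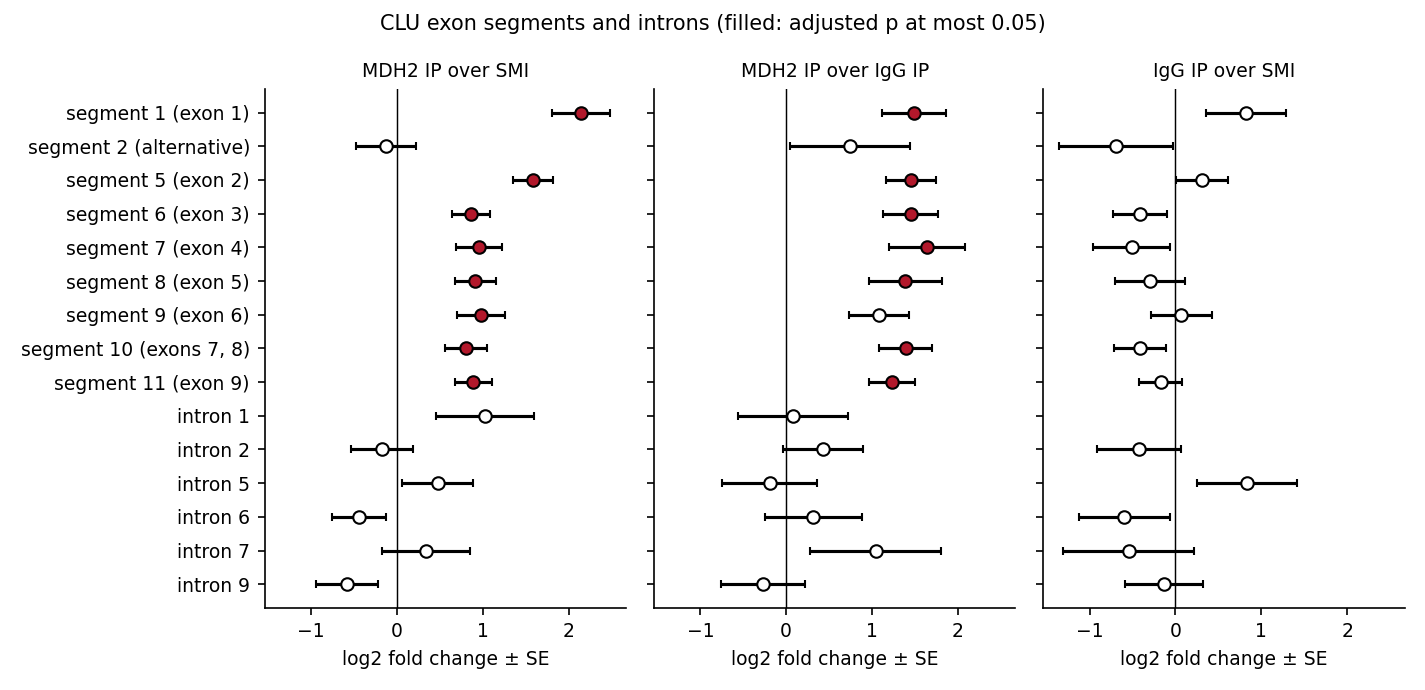
Log2 fold change (points) with SE (bars) of each tested exon segment and intron of CLU for MDH2 IP over SMI, MDH2 IP over IgG IP and IgG IP over SMI, with the exon of CLU-201 in brackets. Filled points passed an adjusted p of at most 0.05: 8 exon segments over SMI, led by segments 1 (2.14) and 5 (1.58), 7 over IgG IP, and 0 where IgG IP was set against SMI.

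Each segment and intron was also tested against the rest of CLU, which separates the position of the sites from the level of the gene. Over SMI, segment 1 was higher than the rest of the gene, with a difference in log2 fold change of 1.2 (adjusted p = 0.0239 in edgeR). Intron 6 and intron 9 were lower than the rest, by differences of -1.39 (adjusted p = 0.0393 in edgeR) and -1.53 (adjusted p = 0.00755). Across all genes, 3.91% of 119105 exon segments and introns were higher and 1.98% lower than their gene, with 6.85% of exon segments higher and 3.59% of introns lower. Segment 5 had a difference of 0.64 (adjusted p = 0.235 in edgeR).

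Libraries of the same number deviated together in MDH2 IP and SMI, and with that number as a block 6 parts of CLU passed. The share of all exon segments and introns that passed with the block is not given, so these 6 cannot be set against it. Segments 1 and 5 were then higher than the rest, with differences of 1.24 (adjusted p = 4.21e-06) and 0.65 (adjusted p = 0.000912 in edgeR). Segment 2 and introns 2, 6 and 9 were lower, with differences between -1.11 and -1.10 for segment 2 and intron 2 and of -1.37 and -1.53 for introns 6 and 9. Intron 9 passed in each fit that left out a library, and alone without MDH2 IP replicate 1, MDH2 IP replicate 2 or SMI replicate 1. Without SMI replicate 3, introns 2 and 9 passed, so that segment 1 and intron 6 passed in only 2 of these 6 fits, those that left out MDH2 IP replicate 3 or SMI replicate 2. Over IgG IP, 0 parts of CLU passed in edgeR, where 3.69% of 81602 were higher and 1.43% lower than their gene. An unadjusted p under 0.05 was found in 2, and the share of all parts with such a p is not given. Between IgG IP and SMI, 0 passed and 0 had an unadjusted p under 0.05, where 2.29% of 88078 were higher and 2.92% lower. Intron 9 was nearest over IgG IP, at -1.58 (adjusted p = 0.0834), and passed without IgG IP replicate 3 (adjusted p = 0.0279).

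The distribution of CLU counts within each library does not depend on scaling between libraries. Segment 5 took 19.6%, 17.8% and 18.1% of the CLU counts in MDH2 IP, 11.2%, 12.3% and 11.97% in SMI, and 18.5%, 12.2% and 20.3% in IgG IP. Segment 1 took 4.8%, 4.84% and 3.95% in MDH2 IP, 1.64%, 2.49% and 1.6% in SMI, and 4.66%, 2.95% and 3.88% in IgG IP. In both segments the MDH2 IP libraries were above all SMI libraries and overlapped with IgG IP. Segment 2 took 0.511%, 0.679% and 1.002% in MDH2 IP against 1.64%, 1.06% and 2.05% in SMI, so that MDH2 IP was below all SMI libraries and overlapped with IgG IP.

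The introns together took 6.38%, 4.14% and 4.95% of the CLU counts in MDH2 IP, 10.8%, 10.5% and 9.23% in SMI, and 8.6%, 12.8% and 12.1% in IgG IP. MDH2 IP was below both controls in every library, with mean differences of -5.01 percentage points from SMI and -6.0 from IgG IP. The exact two-sided permutation test gave p = 0.1 for each of these intron differences, and for MDH2 IP against SMI in segments 1, 2 and 5, the smallest that 3 against 3 libraries allow, and the adjusted p over 30 comparisons was 0.429. The share of exons in all window counts, given above, was also highest in MDH2 IP, and its part in the intron share of CLU was not tested. Segments 6, 7, 8, 9, 10 and 11 had shares that overlapped between MDH2 IP and SMI.

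**Figure D5:**
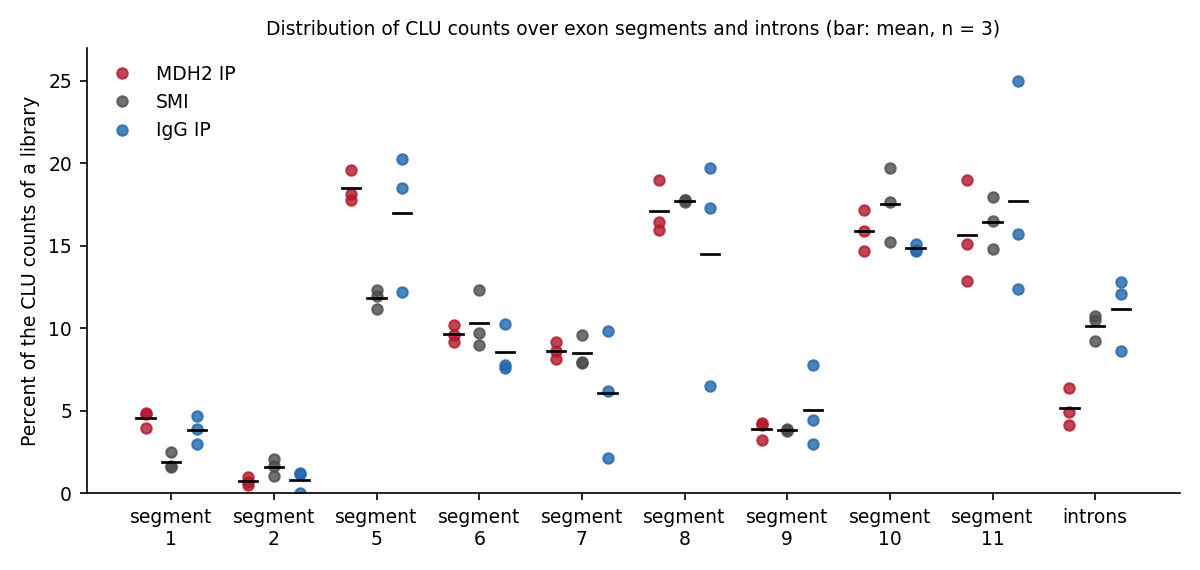
Percent of the CLU counts of a library (vertical axis) in each exon segment with at least 10 counts in 3 libraries and in all introns together, with a point for each library and a bar for the mean of 3. MDH2 IP libraries lie above SMI in segments 1 and 5, below SMI in segment 2 and below both controls in introns, and IgG IP libraries are widely spread in segments 5, 7, 8 and 11.

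By coding position, windows centred in the coding sequence took 68.3 ± 2.64% of CLU counts in MDH2 IP, 64 ± 1.33% of those in SMI and 59.2 ± 7.61% of those in IgG IP (SD, n = 3). In the same order, windows centred in the 5′ UTR took 6.62 ± 0.79%, 3.61 ± 0.864% and 5.58 ± 1.91%, and those in the 3′ UTR 15.7 ± 3.12%, 16.4 ± 1.58% and 17.7 ± 6.54%. Windows with fewer than 25 nt in the exons of CLU-201 took 9.43 ± 1.35%, 16 ± 1.11% and 17.5 ± 2.21%. These shares were not tested.

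Genes were counted from 5 lists, of clusterin receptors and of broader groups, with values as differences at the gene level. Membership of a broader group does not mean that a gene acts with clusterin. Of 8 clusterin receptors, LRP1, a large endocytic receptor, was higher in MDH2 IP over SMI (log2 fold change 0.85) and SORT1, a sorting receptor, was lower (-0.55). Over all genes, 16.4% were higher and 17.9% lower in this comparison, and counts of 1 in 8 in each direction are below these shares. The highest value was 1.45 in PLXNA4, which did not pass, and the list median was 0.59 against -0.01 over all genes. Over IgG IP, 0 of the 8 passed, with 0.02 in LRP1. Of 8 terminal complement proteins and inhibitors tested out of 10, C6 (1.75) and VTN (0.73), the gene of vitronectin, were higher over SMI (16.4% over all genes), 0 were lower (17.9% over all genes), and the median was 0.26. C6 had a mean of only 3.31 CPM in MDH2 IP, and the lowest value of the list, -0.35 in CD59, did not pass.

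Of 11 apolipoproteins and HDL proteins tested, 3 were higher over SMI and 0 lower, beside 16.4% and 17.9% over all genes, with a median of 0.30. These were APOE (1.36) and APOA1 (0.99), the main apolipoproteins of remnant and HDL particles, and LCAT (0.95), the enzyme that esterifies cholesterol on HDL, while the lowest was PON1 at -0.48. LCAT was also higher in IgG IP over SMI (1.32, adjusted p = 0.0171 in edgeR), and had -0.27 in MDH2 IP over IgG IP. Of 8 genes listed as extracellular chaperones, SDF4 (1.19), which encodes a calcium-binding protein of the Golgi, and CST3 (0.68), the gene of cystatin C, a protease inhibitor, were higher and 0 were lower, beside the same 16.4% and 17.9%, and the median was 0.37. The highest value, 1.38 in HP, and the lowest, 0.15 in A2M, did not pass.

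Of 20 genes for folding and maturation in the secretory pathway, 3 were higher over SMI and 4 lower, close to the 16.4% and 17.9% over all genes, with a median of 0.18. The higher ones were HSP90B1 (1.32), a chaperone of the endoplasmic reticulum, FURIN (0.71), a proprotein convertase, and P4HB (0.68), a protein disulfide isomerase. The lower ones were GOLPH3 (-0.84), a Golgi membrane protein, and SPCS2 (-0.73), SEC11A (-0.67) and SPCS3 (-0.54), which encode subunits of the signal peptidase.

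Over IgG IP, 1 of 7 complement genes and 4 of 10 apolipoproteins and HDL proteins were higher, beside 4.64% over all genes. So were 3 of 8 genes listed as extracellular chaperones and 2 of 20 secretory genes. In the chaperone list 1 gene was lower, beside 7.77% over all genes. Over the 5 lists, APOA1, APOE, VTN, CST3 and HSP90B1 passed over both SMI and IgG IP, as CLU did in the main fit. Their log2 fold changes over IgG IP were 1.36, 1.25, 0.87, 0.63 and 1.34. CLU did not pass over IgG IP when only exon windows were counted, and such values are not given for the listed genes. SDF4 was higher over SMI but lower over IgG IP (-0.67, adjusted p = 0.0288 in edgeR). LRP1, LCAT, SDF4, FURIN, P4HB, SPCS2, SEC11A and SPCS3 were named after their values were seen.

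Across the 9 libraries, the genes whose log2 CPM was most like that of CLU were UBR4 (Pearson r = 0.99), BRPF3 (0.98), NCSTN (0.98), ADAR (0.97) and B4GAT1 (0.97), among 5177 other genes with a mean of at least 50 CPM. These values describe 9 libraries in 3 groups that share depth and preparation within a group. UBR4 had mean levels of 674 CPM in MDH2 IP, 351 CPM in SMI and 340 CPM in IgG IP, the same order as CLU.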

How the data were processed

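Counts of cross-link sites were deposited by the authors per 50-nt window (20-nt step), not normalized, for 3 MDH2 IP, 3 SMI and 3 IgG IP libraries. They removed reads under 18 nt, mapped the rest to GRCh38 (GENCODE v23 plus tRNA annotation), kept reads with up to 10 alignments, and removed PCR duplicates by molecular identifiers. Windows without any count are not listed.

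Windows, and their sums over genes and over exon segments or introns, entered a test where 3 or more of its 6 libraries had 10 counts or more, and were fitted together across all genes with edgeR 4.0.16 (R 4.3.3), TMM scaling and the quasi-likelihood test, with Benjamini-Hochberg adjustment. One-sided window p-values were first multiplied by how many tested windows overlapped. Other tests were two-sided. Differences from the rest of CLU came from diffSpliceDGE. CPM used TMM over all 9 libraries, and likeness used a prior count of 2. Scripts were tested on simulated data. DESeq2 1.42.0, scipy 1.17.1 and matplotlib 3.10.9 were also used.

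Alternatives were other scalings, count filters, a fit of all 9 libraries, the replicate block, DESeq2, exon windows only, non-overlapping windows and leaving out each library. The window and segment fits of exons alone were chosen after seeing the data. Shares called over all genes, windows, exon segments and introns are given for the main fits only. Replicate numbers are shared in the labels, and deviations from group means correlated in the data within each number by 0.48, 0.87 and 0.86 between MDH2 IP and SMI, by 0.07, 0.65 and 0.75 between MDH2 IP and IgG IP, and by 0.10, 0.68 and 0.73 between IgG IP and SMI. MDH2 IP and SMI were taken as paired, but the main fits and the exact permutation tests did not use this pairing. Only the alternative with the replicate block did. MDH2 IP replicate 1 did not correlate best with IgG IP replicate 1, nor IgG IP replicate 1 with SMI replicate 1. Pairing with IgG IP is therefore uncertain.

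CLU and the gene lists were chosen with earlier results of these data known. All exon segments and introns are described. Windows named singly were the highest in MDH2 IP in each segment, those with the largest and smallest log2 fold change over SMI, and those enriched. Genes of lists were named where highest or lowest in a list or higher over both controls. No sequence of CLU is printed.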

Additional observations from a re-analysis of the deposited data

How the results depend on the processing

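The log2 fold change of CLU over SMI kept its direction and passed in all alternatives, from 0.86 to 1.23 when each library was left out. Over IgG IP it was 0.99 to 1.5 when each library was left out, and did not pass without MDH2 IP replicate 1 (1.35) or replicate 2 (1.11), nor over exon windows alone (0.77). Between IgG IP and SMI, a difference that never passed, the sign turned over exon windows alone (0.0295), without SMI replicate 2 (0.06) and without IgG IP replicate 3 (0.13), within a range of -0.37 to 0.13. The cause was not tested.

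The 9 windows enriched over SMI became 59 with total counts as library size, a scaling that moved the median of all windows from 0.05 to 0.62, and 4 to 12 when each library was left out (4 without SMI replicate 1, 5 without MDH2 IP replicate 1, 5 without MDH2 IP replicate 2, 6 without SMI replicate 3). At least 5 counts in place of 10 left 6 and DESeq2 7. Over IgG IP, 0 windows were enriched in every alternative. For IgG IP over SMI, 0 became 5 with total counts and 1 with the replicate block, without the multiplication for overlapping windows, in the fit of exon windows alone and without IgG IP replicate 3, a range of 0 to 1 when each library was left out.

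The 8 exon segments higher over SMI became 5 with all 9 libraries in 1 fit, 2 in the fit of exon segments alone and 2 to 8 when each library was left out. The 7 over IgG IP became 0 in the fit of exon segments alone and 4 to 8 when each library was left out. The 3 parts that differed from the rest of CLU over SMI became 1 with at least 1 count in 3 libraries, 0 with all 9 libraries in 1 fit and 1 to 3 when each library was left out. Over IgG IP, 0 became 1 with all 9 libraries in 1 fit, and was 0 to 1 when each library was left out.

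With the replicate number as a block, the log2 fold change of CLU was 1.03 over SMI (SE 0.064) and 1.31 over IgG IP, and between IgG IP and SMI it was -0.19. It gave 10 windows and 8 segments over SMI, and 6 parts differing from the rest of CLU in place of 3. Over IgG IP, whose numbers were not taken as paired, it gave 0 windows, 8 segments and 0 parts. The block changed no other count by over 1.5 times except the 1 window of IgG IP over SMI. The intron share of CLU was lower in MDH2 IP than in SMI by between -5.62 and -4.50 percentage points when each library was left out.

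The low depth of IgG IP limits single windows: the log2 fold changes of the CLU windows over IgG IP had SEs between 0.30 and 0.85.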
